A study of Zea mays with 32 samples.

Results

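Lipoxygenases are enzymes that add oxygen to polyunsaturated fatty acids and so open the oxylipin pathway, the plant counterpart of the eicosanoid pathway of animals. The maize genes are sorted by the carbon of the fatty acid that their enzyme oxygenates. The 9-LOX branch leads to ketols, death acids and other oxylipins linked to root and stalk defence against fungi, nematodes and insects, and the 13-LOX branch leads to jasmonic acid and to the green leaf volatiles. The gene group described here holds 8 of the 39510 identifiers of the count table. They were listed by identifier, with earlier results of these data known. They are the 9-LOX genes lox1 (Zm00001d042541), lox2 (Zm00001d042540), lox3 (Zm00001d033623), lox4 (Zm00001d033624) and lox5 (Zm00001d013493), the 13-LOX genes lox8 (Zm00001d003533) and lox10 (Zm00001d053675), and lox6 (Zm00001d002000), whose enzyme is known for breaking down fatty acid hydroperoxides rather than making them.

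The tissue was root of maize (Zea mays), inbred line B73, wild type, sampled from the tip backwards at 7 days after germination. The seedlings grew on germination paper at 26 °C under 12 h of light and 12 h of darkness. Root B and root A were pinned side by side and hand-cut together into 16 slices, counted from the tip, with 1 RNA-seq library per slice and root, which gives 32 libraries and n = 2 for each slice. The slices carry numbers only, so their position stands for distance from the tip and no slice is assigned to a zone, and there was no treatment or mutant: every contrast sets slices, or the 2 roots, against each other.

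The libraries held 1008082 to 5681180 counts (median 1860465). Levels are CPM, the counts of a gene per 1000000 counts of its library after TMM scaling, a correction for differences in library composition. Slice 8 of root A stood apart, with 8262 genes expected in a thinned sample of 1000000 counts, against 13740 to 19840 in the other libraries. Slices 1 and 12 of root A came next, with 13740 and 14639 genes. The libraries of slice 7 were far closer to each other (chi-square per degree of freedom of 1.4 over genes) than those of any other slice (5.2 to 57.4). CPM compares a gene between slices and not 1 gene with another, since transcript lengths were not used here. In these slices of whole tissue, fewer cells of a type and less RNA per cell cannot be told apart.

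Of the lipoxygenase genes, 6 formed 3 kinds of profile along the root. The tandem genes lox1 and lox2 were high in slice 2, low in the slices just behind it and high again at the back. The gene lox4 was high at both ends and low in the middle, and lox3, lox5 and lox8 were low near the tip and high at the back. The gene lox6 was counted almost only in root A, and lox10 had 0 counts in all 32 libraries. Of the 8 genes, 7 passed the filter on low counts and 6 of these varied between slices (edgeR quasi-likelihood F test over 16 slices, Benjamini-Hochberg adjusted p from 1.96e-08 for lox4 to 0.00433 for lox1). Of all 19587 genes tested, 60.9% varied. For lox6 the adjusted p was 0.399, and 0.00766 when the model held a term for the root.

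**Figure D1:**
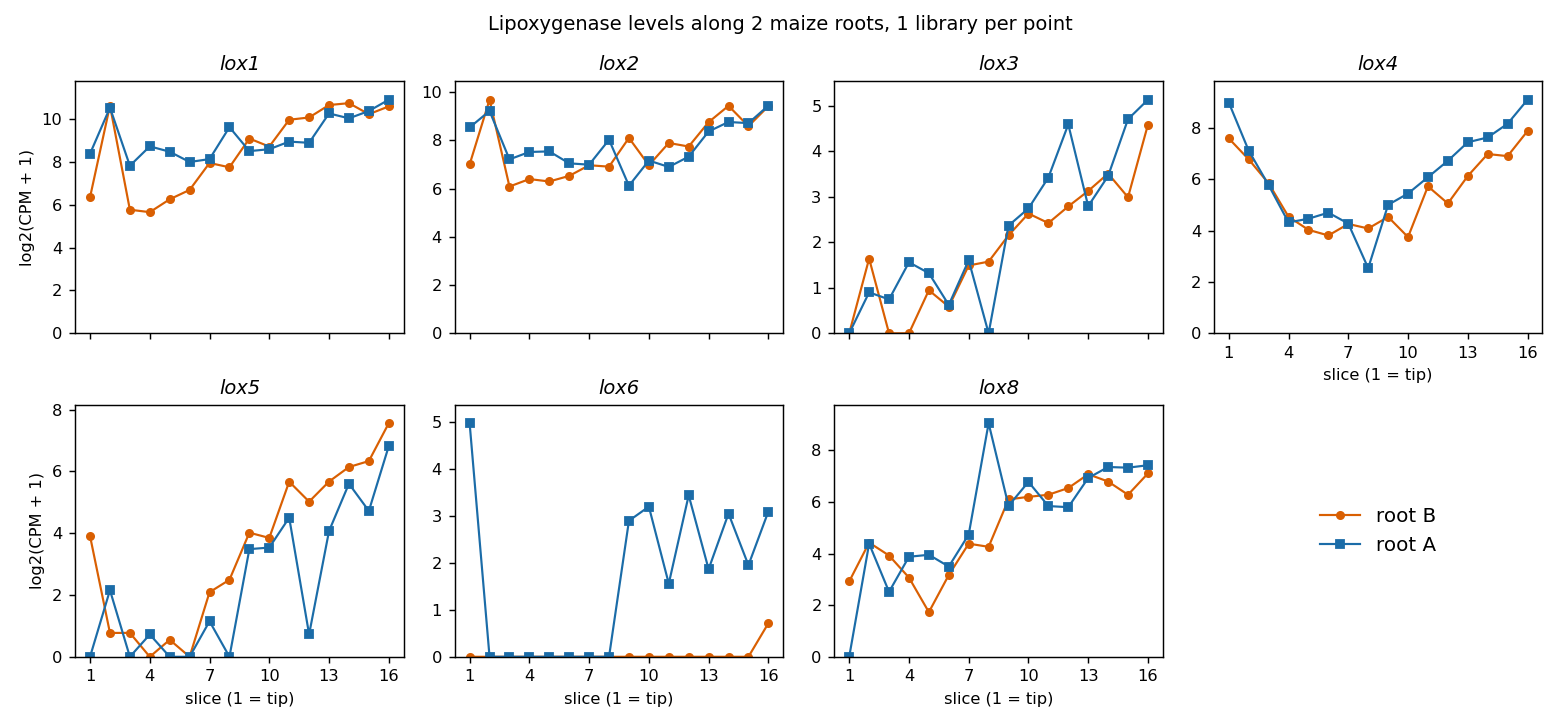
Level of 7 lipoxygenase genes in each library, as log2(CPM + 1), against slice number from the tip (1) backwards, with 1 point per library in root B (circles) and root A (squares). The points of lox4 form a trough with its highest value in slice 16 of both roots, while lox5 reaches its highest value in slice 16 of both roots, and the lone high point of lox8 is slice 8 of root A at 531 CPM.

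The genes lox1 and lox2 are neighbours in the genome: in the RefSeq table of the assembly Zm-B73-REFERENCE-NAM-5.0, 0 other genes lie between the genes of these symbols. The enzyme of lox1 has been described as able to oxygenate at either carbon position. In root B, lox1 held 80.5 CPM in slice 1 and 1570 CPM in slice 2, then 53.3, 49.2, 75.1 and 102 CPM in slices 3 to 6. It then held 245, 213, 541 and 417 CPM in slices 7 to 10, 994 and 1070 CPM in slices 11 and 12, and 1600, 1700, 1190 and 1530 CPM in slices 13 to 16. The level in slice 2 of root B therefore stood with that of the back slices, and slices 3 to 6 formed the lowest stretch.

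In root A, lox1 held 331 CPM in slice 1 and 1470 CPM in slice 2, then 224, 420, 353 and 253 CPM in slices 3 to 6. Slices 7 to 12 held 278, 782, 360, 383, 490 and 471 CPM, and slices 13 to 16 held 1220, 1040, 1320 and 1900 CPM. The peak in slice 2 was thus present in both roots, at 1470 and 1570 CPM against 49.2 to 782 CPM in the 12 libraries of slices 3 to 8. The trough was deeper in root B, whose highest slice held 34.5 times its lowest, against 8.48 times in root A.

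The profile of lox2 had a like form. In root B it held 127 CPM in slice 1, 820 CPM in slice 2 and 66.8 to 124 CPM in slices 3 to 8. Slices 9 to 12 of root B held 273, 124, 236 and 213 CPM, and slices 13 to 16 held 430, 688, 383 and 681 CPM. Slice 2 was the highest slice of root B. In root A, lox2 held 369 CPM in slice 1, 593 CPM in slice 2 and 126 to 259 CPM in slices 3 to 8. Slices 9 to 12 of root A held 68.4, 142, 118 and 159 CPM, and slices 13 to 16 held 329, 432, 418 and 692 CPM. In root A slice 16 was the highest and slice 2 came next. The high level of slice 2 was noticed in the data and was given no test.

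In the fit over both roots, both genes rose from the front to the back of the sampled root. The level of lox1 averaged 1437 ± 290.1 CPM in slices 13 to 16 and 525 ± 630 CPM in slices 1 to 4 (SD over 8 libraries of each block), a log2 change of 2.17 ± 0.44 (edgeR, ± SE, adjusted p = 0.000346). The level of lox2 averaged 506.4 ± 153 CPM in slices 13 to 16 and 298.4 ± 275.1 CPM in slices 1 to 4, a log2 change of 1.14 ± 0.29 (edgeR, adjusted p = 0.00131). The ranges of the blocks overlapped for both genes, and slice 2 held the highest front values of each root. The log2 change averages the slices on the log scale, so it is not the log2 of the ratio of these means. With the counts of the pair summed, which does not depend on how reads shared by the copies were divided, the log2 change was 1.81 ± 0.35 (edgeR, adjusted p = 0.000124). With blocks of 4 slices as groups, so that the spread between the slices of a block counts as error, lox2 no longer passed (adjusted p = 0.0829). In each root fitted alone, with its slices as replicates, neither gene passed, nor did their sum. The adjusted p of edgeR was then 0.096 for lox1 and 0.206 for lox2 in root B, and 0.111 and 0.511 in root A.

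The balance between lox1 and lox2 changed along the root. The share of lox1 in the counts of the pair averaged 74.2 ± 3.69% in slices 13 to 16 and 54.34 ± 14.02% in slices 1 to 4 (SD over 8 libraries of each block), a difference of 19.86 percentage points (exact permutation test over libraries, two-sided, p = 0.00109). In root B the share was 38.74% in slice 1 (95% Wilson interval 32.94 to 44.86%), 65.76% in slice 2, 44.38% in slice 3 and 37.2% in slice 4. It was 49.24%, 52.85%, 66.44% and 64.21% in slices 5 to 8, 83.46% in slice 12 (82.26 to 84.59%) and 69.2% in slice 16. In root A it was 47.28% in slice 1 (43.39 to 51.2%), 71.23% in slice 2, 60.4% in slice 3, 69.73% in slice 4, 84.04% in slice 9 and 73.26% in slice 16. The tip slice had the lowest share of root A, and slices 1 and 4 the lowest shares of root B. In slice 4 the intervals of the roots lay apart, at 31.44 to 43.34% in root B and 66.69 to 72.6% in root A. The intervals cover counting error only, since reads copied by amplification do not each stand for a molecule. The permutation test treats the slices of 1 root as independent, which they are not. With the counts of each block pooled, in which slice 2 holds most of the front counts, the difference was 9.73 percentage points.

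**Figure D2:**
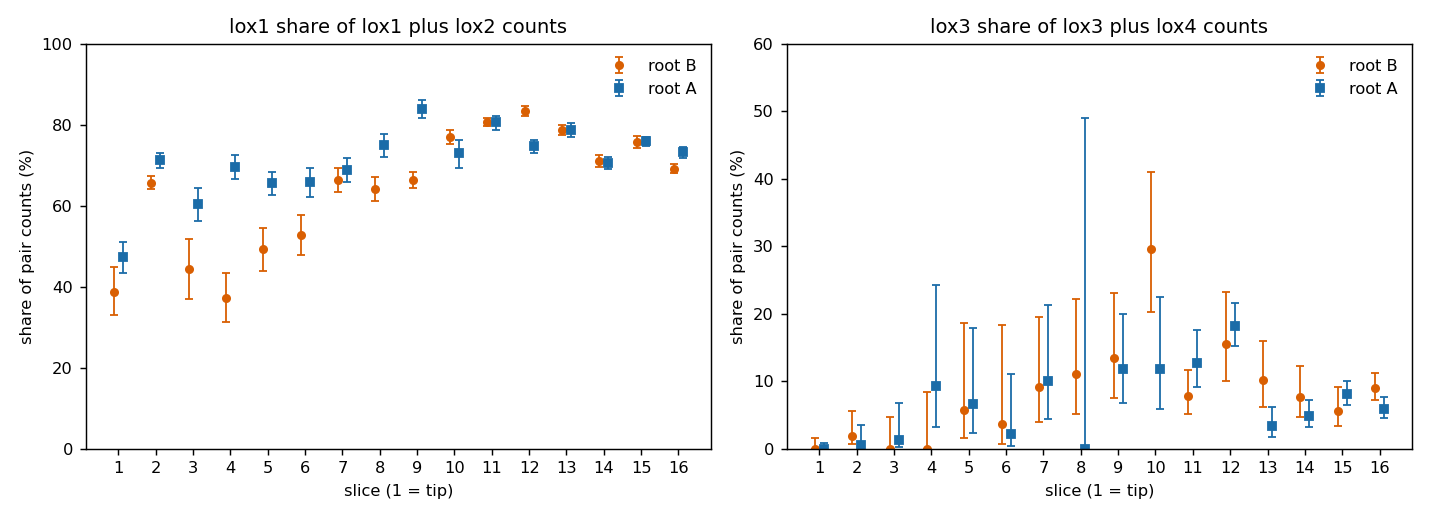
Share of lox1 in the summed counts of lox1 and lox2 (left) and share of lox3 in the summed counts of lox3 and lox4 (right), in percent, against slice number, with root B as circles and root A as squares. Bars are 95% Wilson intervals. The lox1 share is lowest near the tip and the lox3 share is highest in slice 10 of root B, and the widest bar, in slice 8 of root A, rests on 4 counts.

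The genes lox3 and lox4 also stand next to each other, with 0 genes between them in the same reference table, and their profiles parted near the tip. Mutants of lox3 are known for altered outcomes of infection by fungi and nematodes. In root B, lox4 held 191, 108, 56.1 and 22.2 CPM in slices 1 to 4, and 15.3, 13, 18.1 and 15.9 CPM in slices 5 to 8. It then held 22.1, 12.4, 51.7 and 32.2 CPM in slices 9 to 12, and 68.6, 125, 118 and 233 CPM in slices 13 to 16. Levels fell over slices 1 to 4 of root B, and slice 16 exceeded slice 1.

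In root A, lox4 held 504, 137, 53.4 and 18.9 CPM in slices 1 to 4. Slices 5 to 8 of root A held 21, 24.9, 18.3 and 4.8 CPM, slices 9 to 12 held 31, 42.4, 66.4 and 104 CPM, and slices 13 to 16 held 172, 196, 284 and 544 CPM. The 2 roots had a Pearson correlation of 0.929 in log2 CPM of lox4 over the 15 slices other than slice 8, and the lowest value of all, 4 counts, came from the library of slice 8 of root A that stood apart.

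Slice 1 held more lox4 than the slices just behind it, with 191 and 504 CPM against 18.9 to 137 CPM in slices 2 to 4, and the groups did not overlap. The log2 change was 2.75 ± 0.47 (edgeR, ± SE, adjusted p = 4.81e-05). Slice 1 of root A, a library low in detected genes, held the higher of these levels, and without it the log2 change was 1.89 ± 0.58 (edgeR, adjusted p = 0.0293). In that contrast 27.6% of all genes were called, and in 34.5% the groups did not overlap. In slices 5 to 8, lox4 fell to 16.42 ± 5.946 CPM, against 136.3 ± 160.1 CPM in slices 1 to 4 (SD, n = 8), a log2 change of −2.32 ± 0.36 (edgeR, adjusted p = 2.21e-05). It rose again to 45.23 ± 29.06 CPM in slices 9 to 12 (log2 change 1.29 ± 0.35, edgeR, adjusted p = 0.00329), and to 217.7 ± 148.3 CPM in slices 13 to 16 against slices 9 to 12 (log2 change 2.28 ± 0.33, edgeR, adjusted p = 4.07e-06). From end to end the change was smaller, with a log2 change of 1.24 ± 0.32 for slices 13 to 16 against slices 1 to 4 (edgeR, adjusted p = 0.00163), and it did not pass with blocks of 4 slices as groups (log2 change 0.69, adjusted p = 0.216).

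The neighbour lox3 had 0 counts in slice 1 of both roots and few near the tip. In root B it held 0, 2.12, 0 and 0 CPM in slices 1 to 4, 0.927, 0.5, 1.81 and 1.98 CPM in slices 5 to 8, 3.45, 5.2, 4.36 and 5.91 CPM in slices 9 to 12, and 7.74, 10.4, 6.94 and 23 CPM in slices 13 to 16. In root A it held 0, 0.866, 0.676 and 1.95 CPM in slices 1 to 4, 1.5, 0.541, 2.04 and 0 CPM in slices 5 to 8, 4.16, 5.7, 9.72 and 23.1 CPM in slices 9 to 12, and 5.94, 9.98, 25.1 and 34.1 CPM in slices 13 to 16. Slice 16 was the highest in both roots, and the back slices did not overlap with the front slices. The sums behind these levels were 276 counts in slices 13 to 16 and 8 counts in slices 1 to 4, with a log2 change of 4.97 ± 0.76 (edgeR, adjusted p = 8.42e-07). In root A, leaving out slice 3 gave 5.70 and leaving out slice 4 gave 6.00. In slices 9 to 12 against slices 5 to 8 the log2 change of lox3 was 2.48 ± 0.56 (edgeR, adjusted p = 0.000471), and 3.67 without slice 8 of root B. Groups that did not overlap were found for 13.5% of all genes in slices 13 to 16 against slices 1 to 4.

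The tip thus held counts of lox4 and none of lox3: the share of lox3 in the pair was 0 of 233 counts in slice 1 of root B (Wilson interval up to 1.62%) and 0 of 450 counts in slice 1 of root A (up to 0.85%). It averaged 6.82 ± 2.287% in slices 13 to 16 and 1.649 ± 3.204% in slices 1 to 4 (SD over 8 libraries of each block), a difference of 5.17 percentage points (exact permutation test, two-sided, p = 0.00513). As for lox1, the test treats the slices of 1 root as independent, which they are not. The front shares rest on 8 counts of lox3. Slice 4 of root A, with 3 of 32 counts, was at 9.38%, within the range of slices 13 to 16 (3.33 to 10.14%). The share was highest in slices 10 and 12, at 29.58% in slice 10 of root B (20.23 to 41.02%) and 18.21% in slice 12 of root A (15.29 to 21.55%). Slice 12 of root A, with 106 counts of lox3, is a library low in detected genes, and the part of this in its share and level was not tested. With the counts of the pair summed, of which lox4 held most in every library, the log2 change was 2.72 ± 0.46 in slice 1 against slices 2 to 4 (edgeR, adjusted p = 4.52e-05; 1.86 without slice 1 of root A) and 1.32 ± 0.31 in slices 13 to 16 against slices 1 to 4 (edgeR, adjusted p = 0.000789).

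The gene lox5, a 9-LOX gene with no close neighbour in this group, is known for its induction by wounding and insect feeding in leaves. In root B it held 14 CPM in slice 1, at most 0.71 CPM in slices 2 to 6, and 3.26 and 4.63 CPM in slices 7 and 8. From there root B held 15.2, 13.4, 49.9 and 31.5 CPM in slices 9 to 12, and 50, 69.7, 79.8 and 188 CPM in slices 13 to 16. The 17 counts of slice 1 of root B had no match in slice 1 of root A, which held 0 counts, and the difference between slice 1 and slices 2 to 4 did not pass the test (log2 change 3.57 ± 1.55, edgeR, adjusted p = 0.084). Without slice 1 of root B it was −3.55 (adjusted p = 0.832), and without slice 12 of root A or of root B it passed (adjusted p = 0.0336 and 0.0335). With all libraries it also passed with DESeq2 (adjusted p = 0.0223), with no filter on low counts (adjusted p = 0.0342) and with the earlier dispersion step of edgeR (adjusted p = 0.037).

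In root A, lox5 held at most 3.46 CPM in slices 1 to 8, with 0 counts in 5 of them. Slices 9 to 12 of root A held 10.2, 10.6, 21.7 and 0.654 CPM, and slices 13 to 16 held 15.8, 47.6, 25.4 and 112 CPM. Slice 12 of root A, with 3 counts, is a library low in detected genes, and the part of this in its level was not tested. Front and back did not overlap, as for 13.5% of all genes, with 15.8 CPM or more in slices 13 to 16 and at most 14 CPM in slices 1 to 4. The level of lox5 averaged 73.61 ± 55.57 CPM in slices 13 to 16 and 2.437 ± 4.794 CPM in slices 1 to 4 (SD over 8 libraries of each block), a log2 change of 5.68 ± 0.71 (edgeR, adjusted p = 4.16e-08), the highest of the group that passed the test. Leaving out slice 1 of root B gave 7.47 ± 0.95, leaving out slice 3 of root B gave 6.40 ± 0.90, and leaving out slice 4 of root A gave 6.35 ± 0.89. It rose in slices 9 to 12 against slices 5 to 8 (log2 change 4.83 ± 0.85, edgeR, adjusted p = 2.31e-05) and again in slices 13 to 16 against slices 9 to 12 (log2 change 1.86 ± 0.44, edgeR, adjusted p = 0.0021). Without slice 12 of root B these changes were 3.72 and 2.97, and without slice 5 or slice 8 of root B the change into slices 9 to 12 was 5.43 and 6.30, all past the threshold.

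The 13-LOX gene lox8, also named tasselseed1, acts in jasmonic acid synthesis and is known for its part in the loss of pistils in the tassel. In root B it held 6.57, 20.5, 14.2 and 7.4 CPM in slices 1 to 4, 2.32, 8, 19.9 and 18.2 CPM in slices 5 to 8, 67.7, 72.5, 76.8 and 92.2 CPM in slices 9 to 12, and 134, 110, 76.8 and 137 CPM in slices 13 to 16. In root A it held 0, 19.9, 4.73 and 13.7 CPM in slices 1 to 4, 14.5, 10.3, 25.7 and 531 CPM in slices 5 to 8, 56.7, 109, 56.4 and 54.7 CPM in slices 9 to 12, and 121, 163, 160 and 171 CPM in slices 13 to 16. In root B each of slices 9 to 16 exceeded each of slices 1 to 8. In root A the same held with slice 8 set aside, the library that stood apart, whose 442 counts of lox8 gave the highest level of the gene in any library.

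The level of lox8 did not overlap between slices 13 to 16 and slices 1 to 4, as for 13.5% of all genes. It averaged 134.2 ± 31.48 CPM in slices 13 to 16 and 10.88 ± 7.372 CPM in slices 1 to 4 (SD over 8 libraries of each block), a log2 change of 3.84 ± 0.49 (edgeR, ± SE, adjusted p = 8.55e-08). Without slice 1 of root B, which leaves slice 1 with 0 counts of lox8, it was 5.37 ± 0.745. Its rise in slices 9 to 12 against slices 5 to 8 also passed (log2 change 1.47 ± 0.43, edgeR, adjusted p = 0.00577). The medians were 70.1 CPM in slices 9 to 12 and 16.3 CPM in slices 5 to 8. Slice 8 of root A lies in slices 5 to 8. Without that library the log2 change was 2.35 ± 0.31 (edgeR, adjusted p = 5.26e-07), and with all libraries and blocks of 4 slices as groups it was −0.015 (adjusted p = 0.994). Between slices 13 to 16 and slices 9 to 12, lox8 did not pass (log2 change 0.89 ± 0.38, edgeR, adjusted p = 0.105), and it passed without slice 8 of root A (adjusted p = 0.00918) or slice 8 of root B (adjusted p = 0.00711).

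The other 13-LOX gene, lox10, which is needed for green leaf volatiles in leaves, had 0 counts of 72642582 in the 32 libraries. A count of 0 allows a level of up to 0.0422 CPM over the pooled libraries when 3 counts are taken as the limit, so lox10 was not detected at this depth. Of the 39510 identifiers of the count table, 8493 had 0 counts in all libraries. Whether the transcripts used by the authors could count lox10 is not known from the file.

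Counts of lox6 were low and came almost wholly from root A. Root B held 2 counts, both in slice 16, and root A held 145 counts. In root A they lay in slice 1, with 27 counts, and in each of slices 9 to 16, with 17, 10, 6, 45, 4, 16, 9 and 11 counts. Slices 2 to 8 held 0 counts of lox6 in both roots. In CPM, slices 9 to 16 averaged 0.07987 ± 0.2259 CPM in root B and 5.824 ± 2.941 CPM in root A (SD over 8 slices each). The ratio of root B to root A over all slices was 0.0114 (95% exact counting interval 0.00136 to 0.0418). That interval covers counting error only and not the spread between libraries. In the fit with slice and root, the log2 difference of root B against root A was −5.37 ± 0.78 (edgeR, adjusted p = 3.07e-05), and 18 of 19587 genes, lox6 among them, had a difference as low or lower. The gene passed the filter on low counts through root A alone, so this p-value and rank are a description only. With slice 16 of root B left out the log2 difference was −6.18, and with that of root A left out −6.22. With DESeq2 the difference was −3.69 (adjusted p = 0.516).

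**Figure D3:**
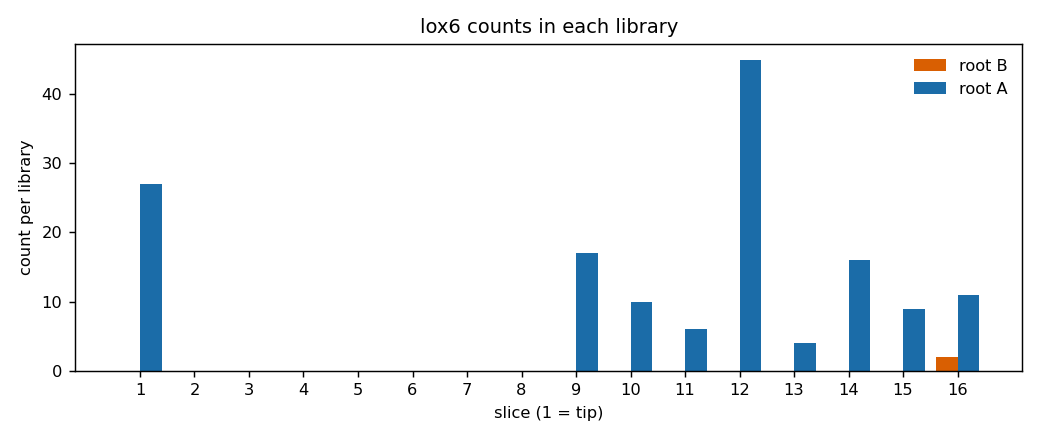
Counts of lox6 in each library against slice number, with root B left of root A in each slice. Bars start at 0, root B has a bar of 2 counts in slice 16 only, and root A has bars in slice 1 and slices 9 to 16 with the tallest, 45 counts, in slice 12.

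The high values of lox6 in slices 1 and 12 of root A come from libraries low in detected genes, as given above, and the part of this in the result was not tested. The contrast of slice 1 with slices 2 to 4 called lox6 (edgeR, adjusted p = 0.0401), at least 37.9-fold higher in slice 1 when 3 counts over slices 2 to 4 are taken as the floor. All 27 counts were in 1 library, so without slice 1 of root A no difference could be fitted. Leaving out either library of slices 2, 3, 4, 13 or 15 also ended the call (adjusted p from 0.0511 to 0.061), and so did DESeq2 in place of edgeR (adjusted p = 0.455). In slices 9 to 12 against slices 5 to 8, lox6 did not pass (adjusted p = 0.0708), with 78 counts in slices 9 to 12 and 0 in slices 5 to 8. It passed without root B of slice 9, 10 or 12 (adjusted p from 0.0389 to 0.0491). It also passed with a term for the root (edgeR, adjusted p = 0.00274), with no filter (adjusted p = 0.00061), with the earlier dispersion step (adjusted p = 0.0238) and with blocks of 4 slices as groups (adjusted p = 0.0301), and with DESeq2 the adjusted p was 0.377. The counts of both roots pooled made it at least 17-fold higher in slices 9 to 12, with 3 counts over slices 5 to 8 as the floor. All 78 counts were from root A, 45 of them in slice 12, and root B held 0 counts in both blocks.

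The group had more calls in the steps into slices 9 to 12 and 13 to 16 than in that into slices 5 to 8. The same held for all genes tested, with the shares given below. In slices 13 to 16 against slices 1 to 4, 6 of the 8 genes rose, 0 fell, 1 did not pass (lox6) and 1 was not tested (lox10). Of all genes tested, 27.9% rose in that contrast, 20.4% fell and 48.3% changed in either direction, and the median log2 change was 3.38 over the 7 lipoxygenase genes tested and 0.01 over all genes. In slices 5 to 8 against slices 1 to 4, lox4 fell and 0 of the group rose, against 3.31% of all genes that fell, 6.42% that rose and 9.74% called in all. In slices 9 to 12 against slices 5 to 8, 5 genes rose (lox1, lox3, lox4, lox5 and lox8) and 0 fell, against 22% of all genes that rose, 21.1% that fell and 43.1% called. The blocks did not overlap for lox3 there, as for 7.54% of all genes. In slices 13 to 16 against slices 9 to 12, 4 genes rose (lox1, lox2, lox4 and lox5) and 0 fell, against 12% of all genes that rose, 7.6% that fell and 19.6% called. The blocks did not overlap for lox2, at 329 to 692 CPM in slices 13 to 16 against 68.4 to 273 CPM in slices 9 to 12 (log2 change 1.57 ± 0.29, edgeR, adjusted p = 0.000135), as for 2.74% of all genes. In slice 1 against slices 2 to 4, 2 genes were higher (lox4 and lox6) and 0 lower, against 15.1% of all genes higher, 12.5% lower and 27.6% called.

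**Figure D4:**
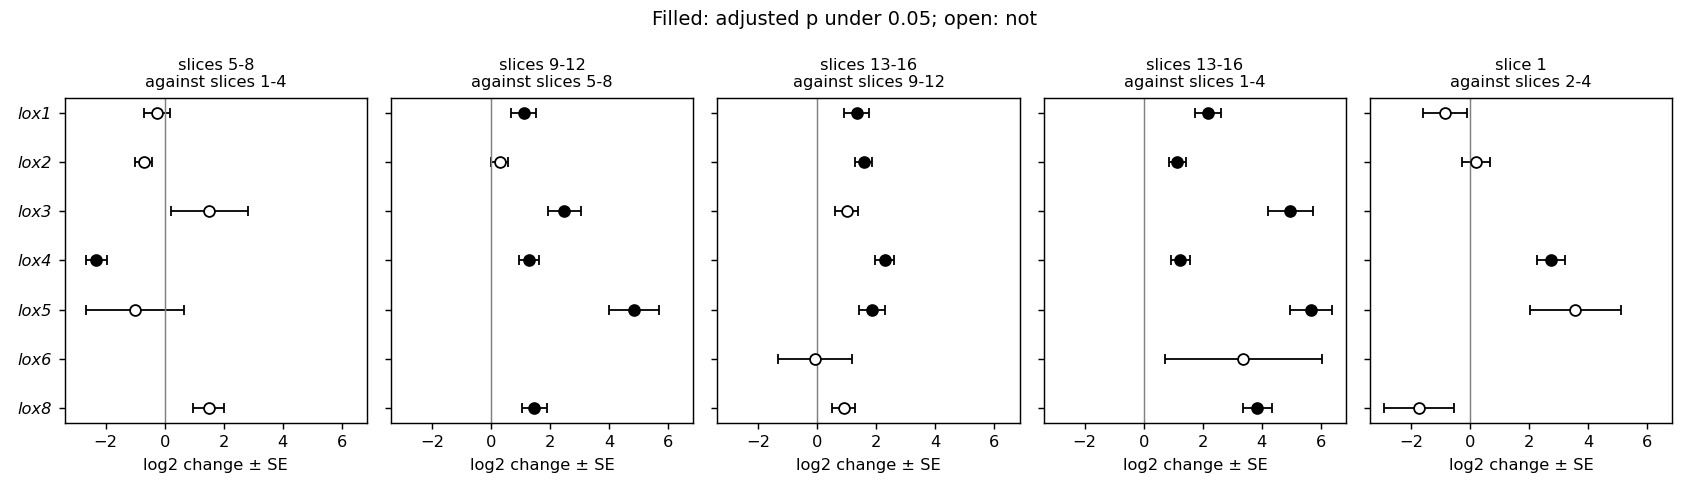
Log2 change with its SE for 7 lipoxygenase genes in 5 contrasts of slices, from edgeR over all 32 libraries. Filled points passed an adjusted p of 0.05 and open points did not, genes with no count in a block are left out, and in slices 13 to 16 against slices 1 to 4 the points run from 1.14 (lox2) to 5.68 (lox5).

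The call of lox1 in slices 9 to 12 was near the threshold (log2 change 1.10 ± 0.43, edgeR, adjusted p = 0.0425). It was lost in 22 of 41 alternatives, with an adjusted p of up to 0.137 and a log2 change of 0.87 or more throughout. Of these, 18 left out 1 library, which was either library of slices 2, 7, 10, 13, 15 or 16, or root B of slices 5, 6, 8, 9, 11 or 12. The summed pair of lox1 and lox2 stood as near the threshold (log2 change 0.87 ± 0.34, edgeR, adjusted p = 0.0416). The rise of lox1 in slices 13 to 16 against slices 9 to 12 (log2 change 1.33 ± 0.43, edgeR, adjusted p = 0.0315) was lost in 14 of 41 alternatives (adjusted p of up to 0.0848), 12 of which left out 1 library: either one of slices 9, 10, 15 or 16, root B of slices 13 or 14, or root A of slices 11 or 12. For lox3 in the same contrast (log2 change 0.99 ± 0.38, edgeR, adjusted p = 0.0624), leaving out either library of slice 8, root A of slice 11 or 12, or root B of slice 15 brought it past the threshold (adjusted p from 0.0165 to 0.0492). When each root was fitted alone with its slices as replicates, 3 genes passed in slices 13 to 16 against slices 1 to 4 in root B and 3 in root A, and these were lox3, lox5 and lox8 in each. Without slices 8, 1 and 12 of root A, the genes called were the same in 3 of the 5 contrasts and others in 2. In slices 13 to 16 against slices 9 to 12, lox1 was lost (adjusted p = 0.0588) while lox3 (adjusted p = 0.00426) and lox8 (adjusted p = 0.0122) passed. In slice 1 against slices 2 to 4, lox6 had no count left and lox5 passed (log2 change 4.40, adjusted p = 0.0123).

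The 2 roots differed in the level of 3 of the 7 genes tested when slices were matched, against 10% of all genes. Root B held less lox4 in 13 of 16 slices, with a log2 difference of −0.75 ± 0.20 (edgeR, ± SE, adjusted p = 0.0102). Root B held more lox5 in 13 of 16 slices, with a log2 difference of 1.33 ± 0.34 (edgeR, adjusted p = 0.00739). Of all genes, 5.46% were higher and 4.56% lower in root B. The third such gene was lox6, lower in root B in 9 slices and at 0 counts in both roots in the other 7. It passed the filter on low counts through root A alone. Each side is 1 root, so these p-values compare this root B with this root A. With the earlier dispersion step of edgeR, lox6 alone passed, and the adjusted p was 0.0635 for lox4 and 0.074 for lox5. For lox3 the log2 difference was −0.75 ± 0.33 (edgeR, adjusted p = 0.149), and it passed without slice 8 of root A (adjusted p = 0.0468) or of root B (adjusted p = 0.0495). Without slices 8, 1 and 12 of root A, 3 genes of the group differed between the roots.

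The change from front to back did not pass a test of difference between the roots for any gene of the group (0 of 7 called by edgeR, 0 with an unadjusted p under 0.05, adjusted p from 0.985 upward; DESeq2 was not run on this test). For lox1 the change in mean log2 CPM of the slices was 3.45 in root B and 1.53 in root A, and for lox8 it was 3.24 in root B and 4.62 in root A. The test instead compares fitted levels of whole blocks. Its log2 estimate for root B minus root A was 0.61 ± 0.97 for lox1 and −0.73 ± 1.14 for lox8 (edgeR, ± SE). That test takes the slices of each block of a root as replicates, and 0.0306% of all genes were called.

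Across the 31 libraries other than slice 8 of root A, the log2 CPM of lox1 and lox2 had a Pearson correlation of 0.863, and lox1 was the gene most like lox2 in a search of 11960 genes (mean level of 10 CPM or more). Within the group the next highest values were those of lox3 with lox8 (0.858) and of lox5 with lox8 (0.813), while the neighbours lox3 and lox4 had 0.412. For lox8 the most alike gene was Zm00001d048533 (0.953), and 67 genes reached 0.9. For lox5 it was Zm00001d029654 (0.926), and 4 genes reached 0.9. For lox4 it was Zm00001d004467 (0.906), the 1 gene that reached 0.9. The likeness of lox1 and lox2 was not mutual: for lox1 the most alike gene was Zm00001d032873 (0.884), and 0 genes reached 0.9. The sources used here give no names for these identifiers. The libraries share 2 roots and the correlations describe likeness of profile only.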

How the data were processed

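Counts per gene of 32 RNA-seq libraries (16 slices of 2 roots, assigned by title) were used as deposited: whole numbers, not normalized. The submitters' processing notes name Trimmomatic, kallisto 0.43 and DESeq2; their roles, the genome build, rounding and strand are not stated in the labels. If kallisto made the counts, it divided by estimation the reads that close copies share, so lox1 and lox2, and lox3 and lox4, were also summed. The kit amplified the RNA (Ovation RNA-Seq System V2, per the labels' protocols).

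The members, lists and tests were chosen with earlier results of these data known. Gene names came with the list of members, since 0 of 49888 genes of the reference table matched an identifier. Other oxylipin genes, tissue markers and sequences were therefore not analysed here. Genes outside the list were named only as those of the highest correlation with a member.

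Tests ran on all genes with edgeR 4.0.16 (R 4.3.3): TMM, filterByExpr by slice (minimum count 10, total 15, leaving 19587 genes), quasi-likelihood fit (robust, legacy = FALSE), 16 slices as groups, Benjamini-Hochberg adjustment over all genes and calls under 0.05. The SE is the log2 change over the square root of F. Roots were compared with slice and root as terms, and their difference in change with root by block as groups. Correlations used log2 CPM with a prior count of 2. Shares needed 20 counts of the pair, and the smallest p of their test is 0.000155. All p-values rest on 2 roots sectioned together. A letter was taken to mark 1 root in every slice, so that letters pair the samples. Over 120 pairs of slices, deviations from slice means correlated weakly, with a median of 0.143 (−0.02 to 0.376) and 85 pairs over 0.1. The tests between slices held no term for the root unless stated. Scripts were tested on simulated data. Alternatives were DESeq2 1.42.0 and its size factors, other filters, the earlier dispersion step, a root block, other groupings and libraries left out.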

Additional observations from a re-analysis of the deposited data

How the results depend on the processing

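Front-to-back calls of lox5 and lox8 held in all 44 alternatives, and that of lox3 in the 43 that tested it (a mean of at least 10 CPM left it out). Their size moved by over 1.5 times with slices 2 to 4 as the front (3.997 for lox3, 6.573 for lox5), blocks as groups (4.316 for lox3, 4.999 for lox5), root B alone (4.809 for lox5, 3.189 for lox8) and root A alone (4.086 for lox3). With slices 2 to 4 as the front lox4 was at 1.931, and with blocks as groups lox1 was at 1.453; with blocks as groups lox4 was also at −3.002 in slices 5 to 8 and lox5 at 3.657 in slices 9 to 12. The 6 calls in slices 13 to 16 against 1 to 4 became 3 in root B alone and 3 in root A alone, and the 2 pair sums became 0 and 0 there and 1 with blocks of 4 slices as groups. In slices 5 to 8, 1 call became 2 with DESeq2's size factors, no filter or a mean of at least 10 CPM, and 3 with DESeq2 or blocks as groups (1 to 2 with 1 library left out, 2 without root B of slice 5 or 8): lox2, lox8 or both were added. Slice 1 had 1 call with a mean of at least 10 CPM, where lox6 was not tested, and 1 to 3 with 1 library left out. The roots differed in 1 gene with the earlier dispersion step. In slices 9 to 12, 2 pair sums became 1 with DESeq2's size factors, DESeq2, slice 7 counted as 1 or blocks as groups, and 1 to 2 with 1 library left out. The cause was not tested.

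With a replicate block (root as a term), 7 genes varied between slices, and the contrasts called 6 genes at the back against the front, 1 for slices 5 to 8, 6 for slices 9 to 12, 5 for slices 13 to 16 against 9 to 12, where lox3 was added (adjusted p = 0.0428), and 2 for slice 1. Beyond lox6 and lox3 the block changed no call.

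Signs that turned (log2) were of values that had not passed, apart from lox8 in slices 9 to 12 (−0.015 with blocks as groups). For lox6 they were −0.111 with blocks as groups and −0.443 in root A alone (slices 13 to 16 against 1 to 4), and 0.118 with DESeq2's size factors, 1.571 without slices 8, 1 and 12 of root A and −1.636 to 1.549 with 1 library left out (against 9 to 12). Without slices 8, 1 and 12 of root A, lox2 was at −0.771 in slice 1 and 0.034 between roots. With 1 library left out, values ran from −2.473 to 0.78 for lox5 and −0.623 to 0.312 for lox1 in slices 5 to 8, and in slice 1 from −3.551 to 4.513 for lox5, −0.759 to 0.785 for lox2 and −1.493 to 0.268 for lox1 plus lox2. DESeq2's size factors moved the median log2 change of all genes by −0.22 (slices 13 to 16 against 1 to 4), −0.26 (slices 5 to 8), −0.16 (slices 9 to 12) and 0.20 (slices 13 to 16 against 9 to 12). Without slice 1 of root A, lox6 had no count in slices 1 to 8 and gave no value there. Low counts limit lox3, lox5 and lox6 near the tip.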
